A study of Mus musculus with 64 samples.

Results

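Transposon insertions were examined in 9 genes of the NF-κB pathway other than Traf3, namely Tnfaip3, Nfkb1, Nfkb2, Rel, Traf2, Birc3, Map3k14, Bcl10 and Malt1. An insertion belonged to a gene when the gene column of the deposited table named it, which held for 211 of 385883 lines, and these are 9 of the 17126 genes named in that column. After positions were moved to the TTAA or TA motif and each position was counted once per sample, 209 insertions remained, of which tumours held 132 (PB) and 49 (SB) and tails held 21 (PB) and 7 (SB). Malt1 held the most insertions in tumours of both systems, with 39 in 19 of 30 PB tumours and 17 in 7 of 11 SB tumours, and the only insertion to take more than 10% of the reads of a sample lay in it. In PB tumours 6 of the 9 genes (Birc3, Malt1, Nfkb1, Nfkb2, Rel and Tnfaip3) were called as hit more often than their motif sites predict. Of all genes 4.85% were called there. In SB tumours Malt1 alone was called, where 0.39% of all genes were. These calls count insertions over the RefSeq extent of a gene. For Rel that is 38 in PB tumours, where the gene column gives 15, and the call was not tested on the 15. The 9 genes were chosen with earlier results of these data known, so the shares describe a chosen list.

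The samples came from 64 mice, each named in 1 sample, in which an array of transposon copies (the ITP lines) is mobilised by a transposase knocked in at Rosa26 and active throughout the body, so that each cell lineage collects its own insertions. The transposase was PiggyBac (PB, genotype label IMPB) or Sleeping Beauty (SB, genotype label IMSB). The tumours were diagnosed by the authors as diffuse large B cell lymphoma, with tissue labels of SPLEEN, THYMUS and various LN, MASS and SI sites, and tails served as control tissue. PB mice gave 30 tumours and 12 tails, and SB mice gave 11 of each. The SB mice came from parents that both carried Blm m3/m3, a hypomorphic allele of the Bloom helicase that raises recombination, whereas the Blm genotype of the PB mice is not given in the sources used here, so system and breeding cannot be told apart. All mice were of mixed C57BL/6 × 129Sv × FVB background. Ages are not given in the sources used here. Since the table holds DNA insertions and no RNA, the labelled cell type could not be checked against marker genes.

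NF-κB transcription factors are dimers of Rel family proteins that drive survival and proliferation of B cells. In the canonical arm, antigen receptor signals act through BCL10 and MALT1 to activate the IκB kinase and free REL and the NFKB1 product p50, and A20, the product of Tnfaip3, switches the signal off. In the alternative arm, TRAF3, TRAF2 and the cIAP ubiquitin ligases (Birc2, Birc3) keep the kinase NIK (Map3k14) low, and NIK drives the processing of p100, the product of Nfkb2, to p52. Loss of TNFAIP3 and TRAF3 and gain of REL and of C-terminally truncated NFKB2 are known from human lymphoma.

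The kept insertions of a sample ranged from 757 to 10800 over the 64 mice, with group medians between 3547.5 and 4361, and the reads from 55502 to 5721832, the highest being PB tumour 3 (PB tumour median 136578 reads). Sample names were written in a joined form (22 tumours and 5 tails of PB, 11 and 7 of SB) or a separated form (8 tumours and 7 tails of PB, 4 tails of SB). The reads are PCR products with no molecular identifiers, so they do not count molecules, and the intervals given here cover counting error only. Samples were numbered in an order without meaning.

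Between them, the 9 genes were hit in 28 of 30 PB tumours, 8 of 12 PB tails, 9 of 11 SB tumours and 7 of 11 SB tails. Of these genes, the number hit in a PB tumour ranged from 0 to 7, and in a PB tail from 0 to 4. It ranged from 0 to 4 in SB tumours and from 0 to 1 in SB tails. The groups therefore overlapped. In PB tumours the count of genes hit tended to rise with depth, though not in every tumour, and this was not tested. The 2 tumours with none had 757 and 3395 insertions, and the 4 with 1 gene hit had 1542 to 3952. Beyond these the ranges overlapped widely. The 6 with 2 genes hit had 3088 to 8650, the 8 with 3 had 3515 to 9437, and the 5 with 4 had 3787 to 10800. The 3 with 5 genes hit had between 6765 and 9016, the tumour with 6 had 3360, and the tumour with 7 had 6975.

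**Figure D1:**
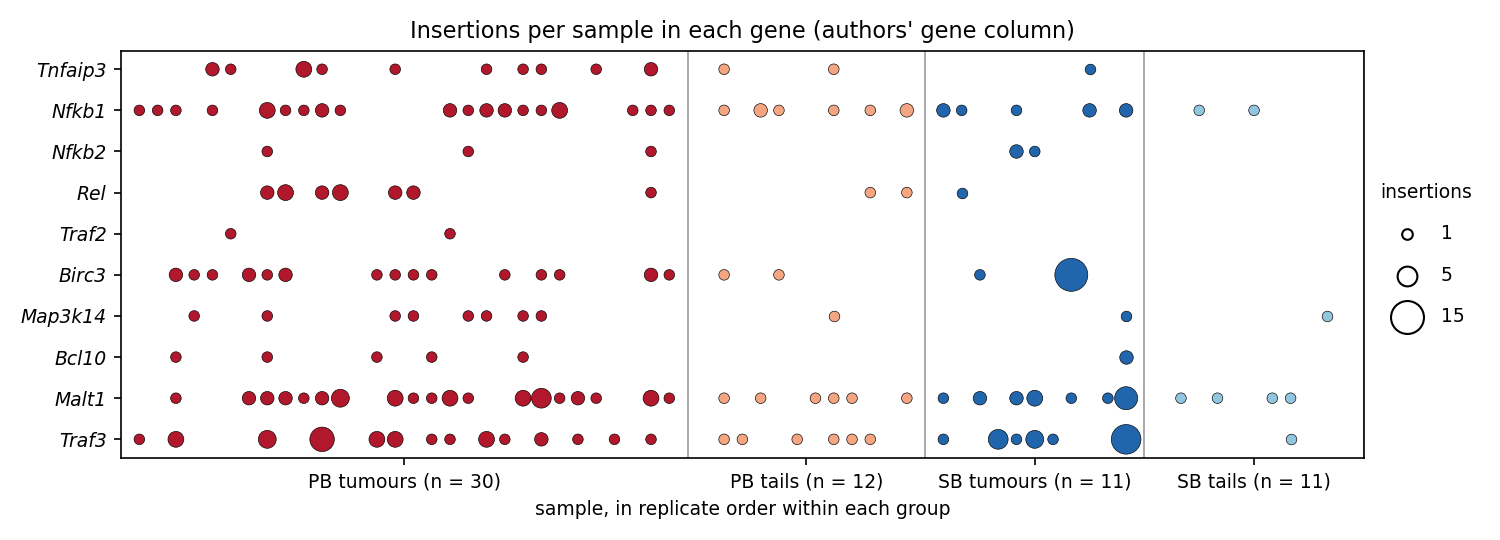
Insertions per sample in each of the 9 genes and in Traf3. Each column is a sample, in replicate order within its group, and the area of a circle grows with the number of insertions, coloured by group. Malt1 and Nfkb1 were each hit in 19 of 30 PB tumours, and the largest circle is the 15 Birc3 insertions of SB tumour 8.

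Whether a gene was hit more often than its number of motif sites predicts was asked with the simplest form of the study's selection model (TransmicronNULL). This form leaves out the biases of the transposons towards genes and open chromatin. In the paper, modelling such biases lowered the number of genes detected in both systems. That fuller model was not run here, so the part of these biases in the calls was not tested. The expected number is the insertions of the chromosome multiplied by the gene's share of that chromosome's TTAA (PB) or TA (SB) sites, over the RefSeq extent of the gene. A gene was called when the one-sided Wald p-value of a Poisson model was below 0.05 after Bonferroni correction over the 22541 (PB) or 23859 (SB) genes with a site, and when at least 3 tumours and 5% of tumours were hit. In PB tumours 4.85% of all genes tested were called (1094 of 22541), and 6 of the 9 genes were. In SB tumours 0.39% of genes were called (93 of 23859), and 1 of the 9 was. None of the 9 was called in tails, where 1.18% (PB) and 0.189% (SB) of genes were. PB tails held 48124 insertions against 156899 in PB tumours, so a like ratio can be called in tumours and not in tails. Nfkb1 had a ratio of 3.98 in PB tails, not called, and 4.25 in PB tumours, called. The missing calls in PB tails therefore do not set them apart from PB tumours. All 9 genes exceeded the expected number in PB tumours, where 44.1% of all genes did. The median observed over expected ratio was 7.80 for the 9 genes and 0.725 for all genes. The 9 genes were chosen with earlier results of these data known. Their shares and ratio beside those of all genes are therefore descriptions, and do not test the list.

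**Figure D2:**
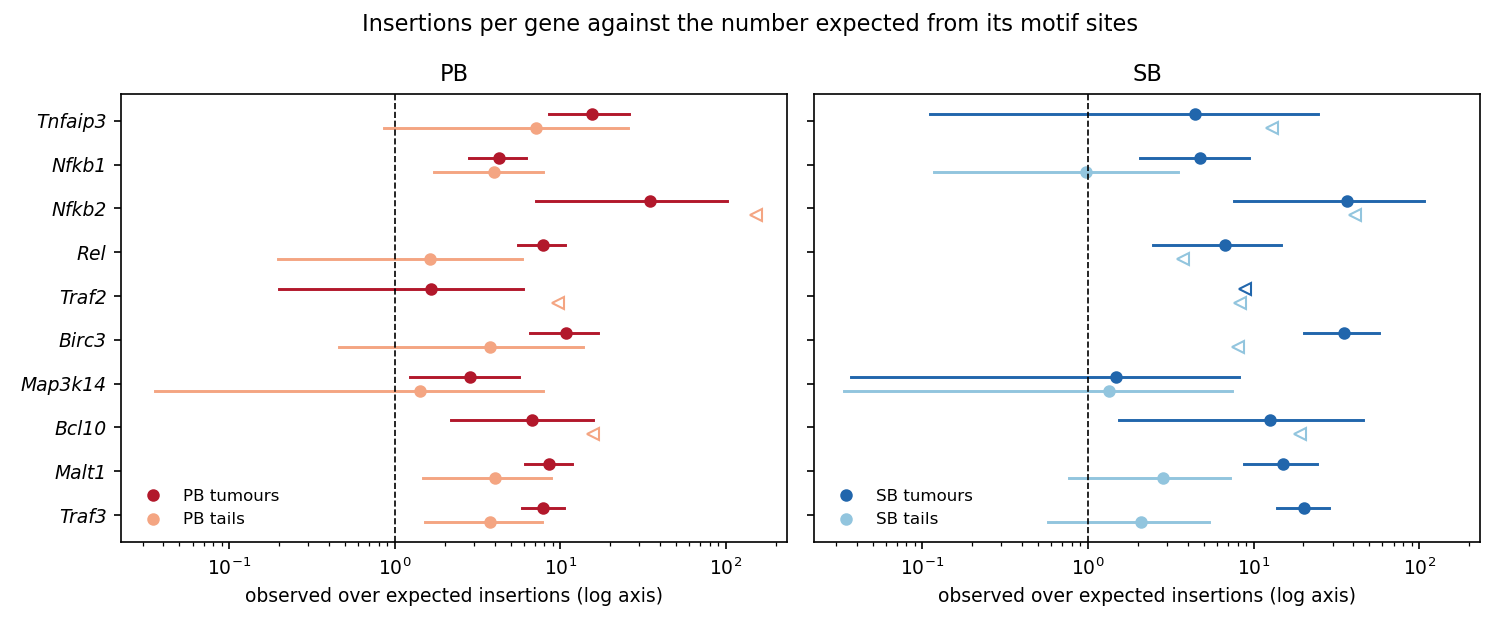
Observed over expected insertions of each gene on a log axis, with the 95% exact Poisson interval, for tumours (dark) and tails (light) of PB (left) and SB (right). Open triangles mark the upper limit of genes without an insertion, and the dashed line is a ratio of 1. Malt1 lay at 8.55 in PB tumours and 15.1 in SB tumours.

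Among the transcription factors, Rel (chr11:23736847-23770969, minus strand) encodes c-Rel, the family member most tied to B cell activation. The gene column gave it 15 insertions in 7 PB tumours, and the selection test was not run on these 15 alone. A further 23 insertions of PB tumours and 5 of SB tumours lay inside its RefSeq extent but were listed as Gm20645 or intergenic, and with them Rel had 38 insertions in 15 PB tumours against 4.87 expected, a ratio of 7.80 (95% interval 5.52 to 10.7, Bonferroni adjusted p = 1.04e-32, Wald test). In PB tails it had 2 insertions, a ratio of 1.63 (0.197 to 5.87). In SB tumours it had 6 insertions in 2 tumours (ratio 6.75, adjusted p = 0.0349), which missed the minimum of 3 tumours, and in SB tails none. Of these 6 Rel insertions 4 were in SB tumour 6, without which the log2 ratio was 1.32 (adjusted p = 1) in place of 2.75, and without SB tumour 2 it was 2.34 (adjusted p = 1). By sample name, 13 of 22 joined tumours carried 35 insertions, and 2 of 8 separated tumours carried 3. Among the separated names alone Rel was not called (log2 ratio 1.57, adjusted p = 1).

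Most Rel insertions of PB tumours lay towards the end of the gene. The stretches of genes named here and below were chosen after the positions were seen, so their shares of motif sites are descriptions without a test. Of the 38 in PB tumours, 26 fell in exon 10 after the stop codon, the long 3′ UTR, which holds 37 of the gene's 299 TTAA sites (12.4%), and 22 of these 26 were listed on the same strand as Rel. Another 7 lay in intron 7, which holds 7 TTAA sites and begins after codon 284 of 588. Both PB tail insertions lay in intron 1, after codon 3. The read numbers in the 3′ UTR were high. An insertion there was the best covered of its sample in PB tumours 20 and 6, with 3906 reads (2.62% of the sample) and 3590 reads (3.58%), and ranked 3 in PB tumour 24 with 6984 reads (3.98%), 15 in PB tumour 7 and 19 in PB tumour 3. The insertion in intron 7 of PB tumour 12 ranked 7 with 849 reads (0.858%). The 6 PB sites are printed because they are the Rel insertions among the 25 best covered of their sample, with 10 bases on each side of the TTAA, 5′ to 3′ on the strand of the gene and the motif in capitals, from the GRCm38 RefSeq sequence.
PB tumour 20, 3′ UTR, chr11:23738548-23738571: ccaaacattcTTAAccacttgata
PB tumour 6, 3′ UTR, chr11:23740189-23740212: ttccatatgtTTAAggtttttttt
PB tumour 24, 3′ UTR, chr11:23739223-23739246: tttgattataTTAAaacaatgcaa
PB tumour 7, 3′ UTR, chr11:23736999-23737022: ttatttttttTTAAgttctcaaga
PB tumour 3, 3′ UTR, chr11:23740685-23740708: cttcttgagcTTAAaaggaaaggt
PB tumour 12, intron 7, chr11:23745264-23745287: tgctgcctttTTAAatgtgctgct

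Some of these positions recurred. The TTAA at chr11:23740695-23740698 was occupied in 7 PB tumours, from 2 reads in PB tumour 22 to 80948 in PB tumour 3, all listed on the strand of Rel. Over all PB samples 7 of the 25 Rel positions (28%) were found in several samples, where 4.30% of all PB positions were. When insertions were left out wherever another sample had at least 10 times more reads at the same position, a check added after the data were seen, the log2 ratio of Rel in PB tumours was 2.38 in place of 2.96 and the gene was still called (adjusted p = 1.66e-12). Beyond this, the part of shared positions in the Rel count was not tested.

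Nfkb2 (chr19:46304737-46312090, plus strand) encodes p100, whose C-terminal ankyrin repeats hold the protein inactive until processing. It is short and holds only 6 TTAA and 203 TA sites. The 3 PB insertions lay in 3 tumours, all at the same TTAA in intron 14, after codon 489 of 899, and all on the strand of the gene. They carried 1358 reads in PB tumour 19, where the insertion ranked 2 of 3787 (1.64% of reads), 19 reads in PB tumour 29 and 3 reads in PB tumour 8. Against 0.0868 expected this was a ratio of 34.6 (7.13 to 101, adjusted p = 9.51e-06), a call that rests on the bare minimum of 3 tumours and was lost on leaving out any of them (lowest adjusted p 0.0798 without PB tumour 8). It was also lost with an exact Poisson test (adjusted p = 1) and with at least 10 reads, where 2 insertions remained, and when insertions with 10 times fewer reads than another sample at the position were left out, where 1 remained (log2 ratio 3.56, adjusted p = 1). The 3 SB insertions, in SB tumours 5 and 6, lay within 606 bp of each other in introns 14 to 16. No call was made because 2 tumours were hit (ratio 36.8, adjusted p = 5.07e-06, Wald test). The Wald p-value rests on 3 insertions against 0.0815 expected, a count as low as in PB, where the exact test did not keep the call. The intron 16 insertion of SB tumour 5, after codon 599, had the most reads of its sample, 6382 (5.81%). No tail of either system carried an Nfkb2 insertion, which over the group is below a floor of 3 insertions, 0.623 per 10000 insertions in PB tails and 0.591 in SB tails. The tumours themselves stood at 0.191 (PB) and 0.685 (SB) per 10000. From its motif sites Nfkb2 was expected to have only 0.0242 insertions in PB tails and 0.0903 in SB tails. The empty tails therefore cannot show a difference from tumours. The sites of the 2 leading insertions are printed in the same way, with the SB motif TA in capitals.
PB tumour 19, Nfkb2 intron 14, chr19:46309514-46309537: tgacaaaagaTTAAgatgatgaca
SB tumour 5, Nfkb2 intron 16, chr19:46310100-46310121: ccgaggagtgTAtatgatcaat

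Nfkb1 (chr3:135584655-135691547, minus strand) encodes p105, the precursor of p50. It had 27 insertions in 19 PB tumours, as many tumours as Malt1, against 6.36 expected (ratio 4.25, 2.80 to 6.18, adjusted p = 6.42e-10). PB tails carried 8 insertions in 6 animals, a ratio of 3.98 (1.72 to 7.84), so that the interval in tails spans the ratio in tumours. SB tumours had 8 insertions in 5 tumours (ratio 4.75, adjusted p = 0.125) and SB tails 2 in 2. The PB tumour insertions were spread over 97704 bp of the gene and carried a median of 4 reads, with the best ranking 50 in its sample, and with at least 10 reads required Nfkb1 was no longer called (adjusted p = 1), as among the separated sample names (adjusted p = 0.227).

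MALT1 is a caspase-like protease and scaffold that binds BCL10. Malt1 (chr18:65430990-65478825, plus strand) had 39 insertions in PB tumours against 4.56 expected, a ratio of 8.55 (6.08 to 11.7, adjusted p = 6.71e-37). The insertions per PB tumour ranged from 0 to 5 with a median of 1, and per PB tail from 0 to 1 with a median of 0.5. PB tails held 6 insertions in 6 of 12 animals, a ratio of 4.02 (1.48 to 8.76), so that the interval in PB tails spans the ratio in PB tumours. SB tumours held between 0 and 7 per tumour (median 1), in all 17 against 1.13 expected, a ratio of 15.1 (8.79 to 24.2, adjusted p = 5.45e-25), and SB tails held 4 in 4 of 11 animals (ratio 2.83, 0.771 to 7.24). Malt1 was called in both systems under every alternative run, leaving out any single tumour included.

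Many Malt1 insertions of tumours lay in a short stretch, again chosen after the positions were seen. In PB tumours 31 of 39 insertions, in 16 tumours, lay in introns 6 to 8, which hold 47 of the 397 TTAA sites (11.8%), and all 31 were listed on the strand of Malt1. Of the other 8, 3 were on that strand and 5 on the opposite one. Intron 7 alone held 22, after codon 328 of 832. In SB tumours 8 of 17 insertions, in 7 tumours, lay in the same 3 introns, which hold 435 of the 3556 TA sites (12.2%). All of them were on the strand of the gene, while 8 of the other 9 were on the opposite strand. Of these 8, 3 in intron 9 and 3 in the 3′ UTR of exon 17 came from SB tumour 11, which held 7 Malt1 insertions and had the most insertions of the SB tumours (8786). Tails held insertions in the stretch too, in a share no lower than that of SB tumours. In PB tails 3 of 6 insertions lay in intron 7, all on the strand of the gene with 12 to 122 reads. In SB tails 2 of 4 insertions lay in introns 6 and 8, on opposite strands.

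Malt1 insertions in this stretch were among the best covered of their samples. In SB tumour 8, labelled THYMUS, the intron 7 insertion had 28383 reads, 17.4% of the sample and the first of 2504 insertions. In SB tumour 10, labelled MES LN, another intron 7 insertion had 7377 reads (7.29%) and also ranked first, and in SB tumour 6 one ranked 11. In PB tumours the best ranks were 5 in PB tumour 8 (2210 reads, intron 8), 17 in PB tumour 11, 18 in PB tumour 16 and 22 in PB tumour 7. The best rank in a tail was 130.

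**Figure D3:**
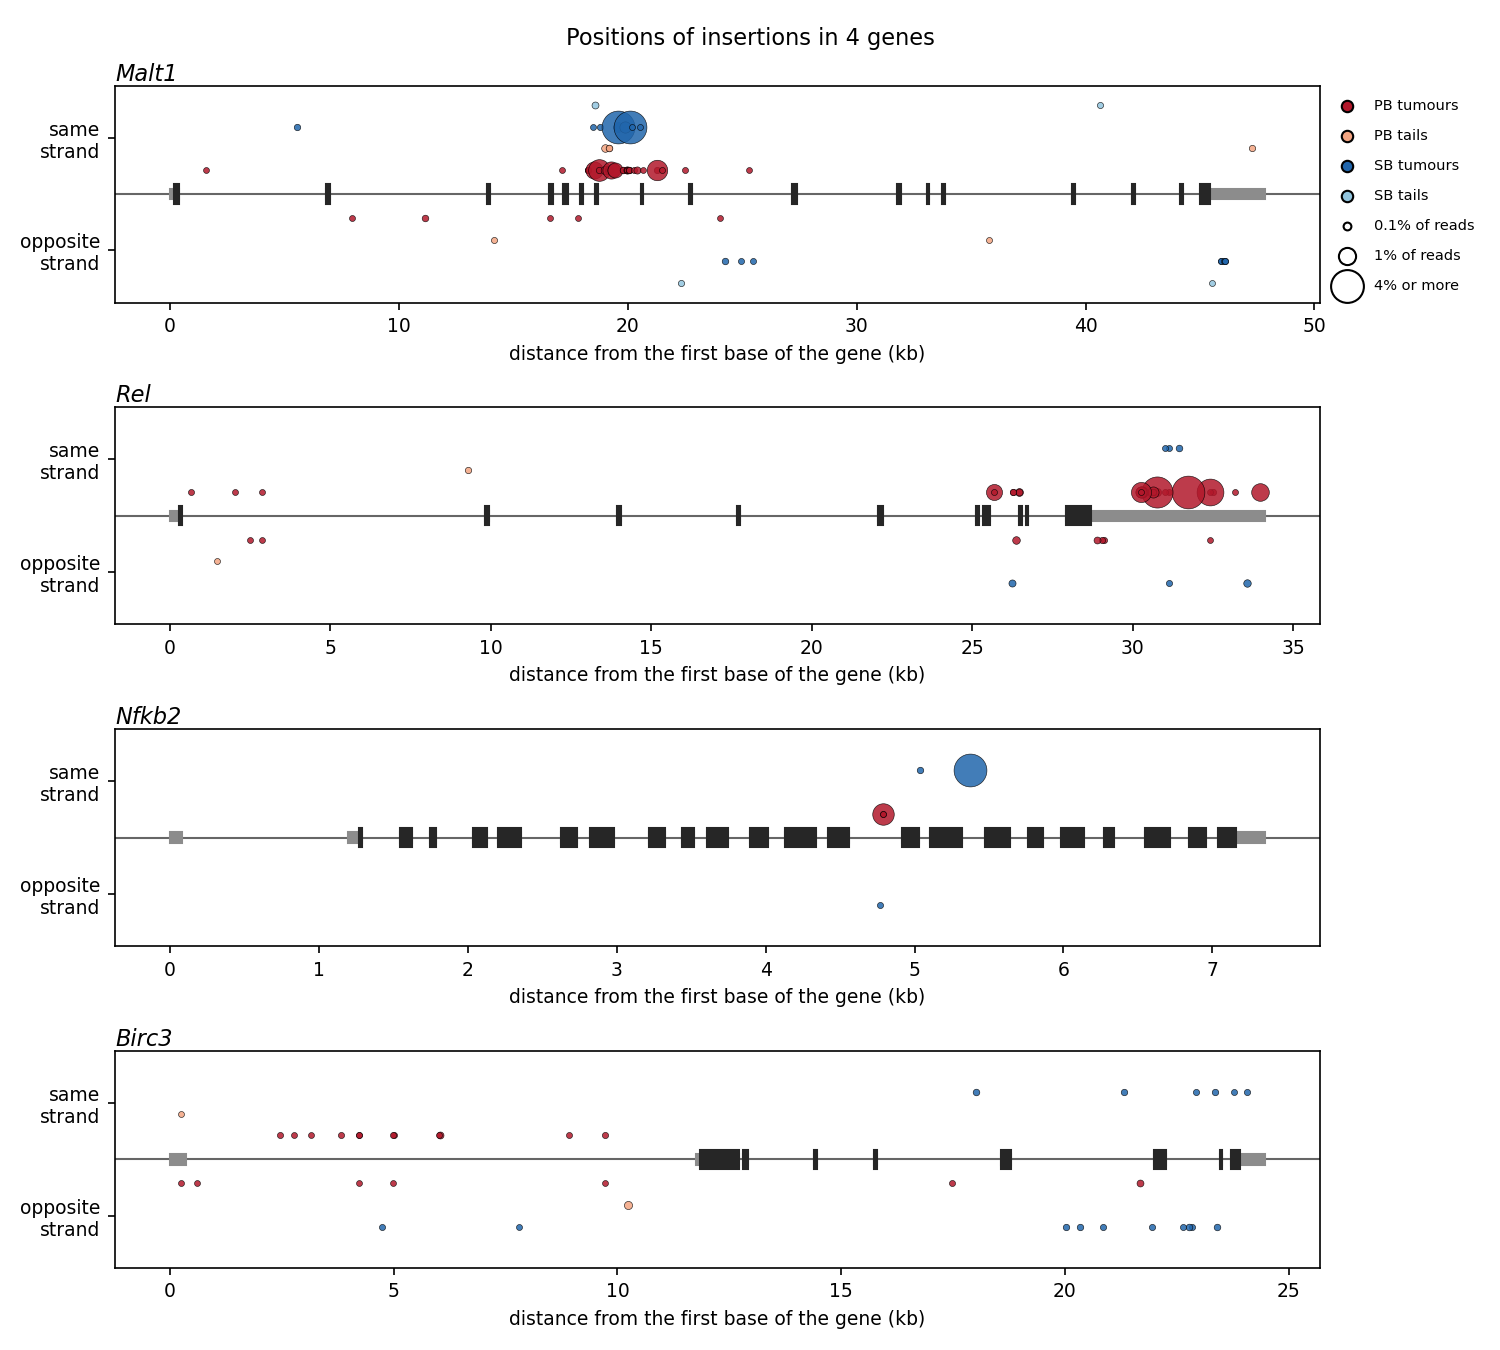
Insertions in Malt1, Rel, Nfkb2 and Birc3 by distance from the first base of the gene, in kb. Points above the line are listed on the strand of the gene and points below on the opposite strand, the area gives the share of the sample's reads (4% or more drawn alike), and boxes are exons, dark where coding. Malt1 insertions of tumours in introns 6 to 8 gather between 18241 and 22484 bp on the strand of the gene and Rel insertions in the last exon.

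Strand bias was tested in PB tumours over the 2389 genes with at least 10 insertions in the gene column, against the 48.4% of all gene insertions that lay on the strand of their gene, with an exact binomial test and Benjamini-Hochberg adjustment. Malt1, with 34 of 39 insertions (87.2%) on its own strand, was the single gene called (adjusted p = 0.00122), so that 0.0419% of genes were. The 4 other members tested were Nfkb1 (20 of 27, 74.1%, unadjusted p = 0.0109, adjusted p = 0.945), Birc3 (12 of 19), Rel (9 of 15 in the gene column) and Tnfaip3 (6 of 14), each with an adjusted p above 0.9. Over its RefSeq extent, however, Rel had 31 of 38 insertions on its own strand, and the strand of this larger set was not tested. The Malt1 call was lost when each tumour gave 1 vote (adjusted p = 0.231) and when insertions with far fewer reads than another sample at the same position were left out (adjusted p = 0.113), with the share on its own strand still above the background by 45.7 and 36.0 percentage points. In Malt1 9 of 29 PB positions (31.0%) were found in several samples.

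BCL10, the adaptor that binds MALT1, is encoded by Bcl10 (chr3:145924262-145934366, plus strand). It had 5 insertions in 5 PB tumours against 0.741 expected (ratio 6.75, 2.19 to 15.8), which did not pass the Bonferroni correction (adjusted p = 0.22) but did with 10 kb added on either side (adjusted p = 1.16e-13). Of the 5, 4 lay in the 3′ UTR of exon 3, after the last codon, as did both SB insertions, of SB tumour 11. No tail was hit, where only 0.234 (PB) and 0.193 (SB) insertions were expected, too few to set against tumours. The reads were few, between 2 and 85 in PB tumours.

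A20, the ubiquitin-editing enzyme encoded by Tnfaip3 (chr10:19000910-19015410, minus strand), ends NF-κB signalling. Tnfaip3 had 14 insertions in 10 PB tumours against 0.903 expected, a ratio of 15.5 (8.47 to 26, adjusted p = 1.26e-20). The 2 insertions of PB tails gave a ratio of 7.10, with an interval from 0.860 to 25.7 that spans the value in tumours, and SB tumours had 1 insertion with 3 reads. Of the 14, 11 lay in introns 1 and 2, the first before the coding sequence and the second after codon 98 of 775, and the strands were mixed, 6 on that of the gene and 8 opposite. Reads ranged from 2 to 3389, and 2 insertions stood out, both on the opposite strand: intron 2 in PB tumour 22 (3389 reads, 1.94%, rank 10) and intron 1 in PB tumour 5 (927 reads, 0.668%, rank 15). Their sites are printed on the strand of the gene.
PB tumour 22, Tnfaip3 intron 2, chr10:19010769-19010792: tatgttgtcaTTAAgaggtaccta
PB tumour 5, Tnfaip3 intron 1, chr10:19011979-19012002: agactaatctTTAAaagtgatgta

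Of the genes that hold the alternative arm in check beside Traf3, Birc3 (chr9:7848699-7873170, minus strand), which encodes the ubiquitin ligase cIAP2, had 19 insertions in 15 PB tumours against 1.75 expected (ratio 10.8, 6.52 to 16.9, adjusted p = 3.32e-21). PB tails had 2 (ratio 3.77, 0.457 to 13.6), with an interval that spans the ratio in PB tumours. In PB tumours 16 of the 19 lay in intron 1, before the first coding exon, which holds 54 of 137 TTAA sites (39.4%), 12 of them on the strand of the gene. All had a low share of reads, at most 0.0540%, and the highest share of any Birc3 insertion, 0.122%, was in a PB tail.

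In SB tumours Birc3 had 16 insertions against 0.453 expected (ratio 35.4), but 15 of them were in SB tumour 8 and 1 in another, and 14 of the 16 lay downstream of intron 1, on both strands and with 12 to 59 reads each. Without SB tumour 8 the log2 ratio of Birc3 was 1.29 (adjusted p = 1). The same tumour carried 49 insertions within 1 Mb on either side of Birc3, where the 10 other SB tumours together carried 47, and 9.42% of its insertions lay on chromosome 9 against 5.50% in the others. The part of this regional density in the Birc3 count was not tested.

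Traf2 (chr2:25517982-25546940), which encodes the adaptor that brings the cIAP ligases to TRAF3, had 2 insertions, in PB tumours 6 and 18, against 1.21 expected and none in the other groups. Map3k14 (chr11:103219764-103267401), which encodes NIK, had 8 insertions in 8 PB tumours (ratio 2.86, 1.23 to 5.63, adjusted p = 1), 7 of them in intron 1 before the coding sequence, and 1 in each of PB tails, SB tumours and SB tails. No Traf2 or Map3k14 insertion in a tumour had more than 12 reads, and the Map3k14 insertion with the most reads, 147, was in an SB tail.

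Insertions with many reads were seen in tumours. With the insertions inside the RefSeq extent of Rel included, 13 of 155 in PB tumours (8.39%) were among the 25 best covered of their sample, against 0.478% of all PB tumour insertions, and by the gene column alone 8 of 132 (6.06%) were. In SB tumours 4 of 49 (8.16%) were, against 0.637% of all. None of the 21 insertions in PB tails and none of the 7 in SB tails was, where 0.632% and 0.557% of all tail insertions were. At these shares none would be likely among so few, so the tails cannot be set against the tumours here. The 13 lay in Rel (6), Malt1 (4), Tnfaip3 (2) and Nfkb2 (1) and the 4 in Malt1 (3) and Nfkb2 (1), while Nfkb1, Birc3, Map3k14, Bcl10 and Traf2 had none. These shares are descriptions, without a test, and the median insertion of the members had 9 reads in PB tumours, where all insertions had 6, and 18 in SB tumours, where all had 13.

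**Figure D4:**
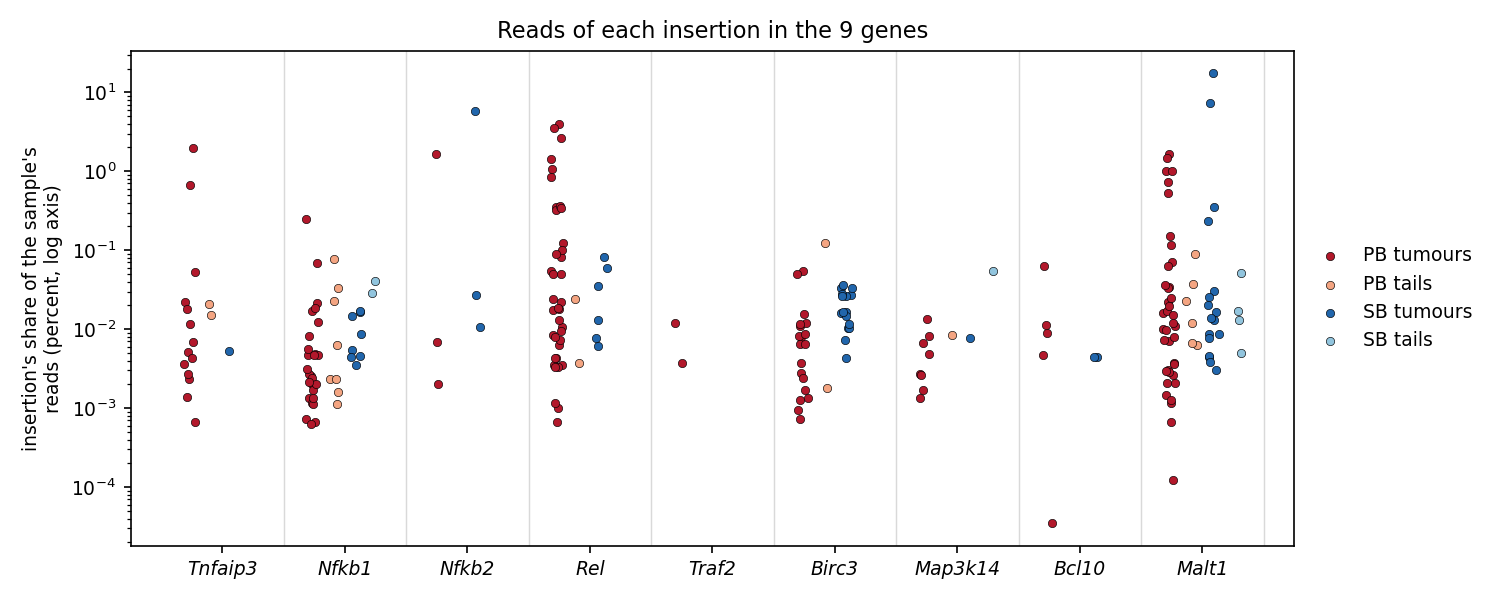
Share of the sample's reads taken by each insertion in the 9 genes, in percent on a log axis, coloured by group, with Rel shown over its RefSeq extent. The points above 1% belong to tumours, and lie in Malt1, Rel, Nfkb2 and Tnfaip3, with a maximum of 17.4% in Malt1 of SB tumour 8.

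Tumours were compared with tails gene by gene on insertions per sample, with edgeR's quasi-likelihood test, the total of insertions of a sample as library size and Benjamini-Hochberg adjustment over the genes with at least 10 insertions in a system. In PB, 2.15% of the 3306 genes were higher and 2.3% lower in tumours, and none of the 5 members tested was called. Per 10000 insertions, Birc3 stood at 1.21 in PB tumours and 0.416 in tails (log2 fold change 1.13 ± 0.67 SE, adjusted p = 0.383 by edgeR), Malt1 at 2.49 and 1.25 (0.88 ± 0.55 SE, adjusted p = 0.396), Tnfaip3 at 0.892 and 0.416 (0.79 ± 0.67 SE, adjusted p = 0.572) and Nfkb1 at 1.72 and 1.66 (0.06 ± 0.55 SE, adjusted p = 0.959). Rel stood at 0.956 and 0.416 by the gene column (0.85 ± 0.67 SE, adjusted p = 0.548), and over its RefSeq extent its log2 fold change was 1.99 (adjusted p = 0.0557 by edgeR). By the gene column none of the 5 had an unadjusted p below 0.05, as 652 of the 3306 genes did. DESeq2 did not call Malt1 or Nfkb1 and gave no adjusted p for Birc3, Rel and Tnfaip3.

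In SB, 0.623% of 1124 genes were higher and 0.178% lower in tumours, and 1 of 3 members tested, Birc3, was called (adjusted p = 0.000323 by edgeR), at 3.65 insertions per 10000 in tumours and none in tails, at least 6.18-fold higher with a floor of 3 insertions over the tails. That call rests on SB tumour 8, without which Birc3 had 1 insertion and could not be tested, and DESeq2 and a test of presence per sample did not make it (adjusted p = 0.992 and 1). Malt1 stood at 3.88 per 10000 in tumours and 0.788 in tails (log2 fold change 1.87 ± 0.66 SE, adjusted p = 0.193 by edgeR), and Nfkb1 at 1.83 and 0.394 (1.63 ± 0.74 SE, adjusted p = 0.465 by edgeR). All 3 had an unadjusted p below 0.05, as did 101 of the 1124 genes.

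Whether the tumour against tail difference itself was larger in one system was tested as an interaction over all 64 samples. Of 4292 genes 0 were called by edgeR in either direction (0%), and 391 had an unadjusted p below 0.05. Among the 6 members with enough insertions, Birc3 had the lowest p (unadjusted p = 0.0194, adjusted p = 0.476 by edgeR, larger in SB and resting on SB tumour 8), followed by Nfkb1 (PB less SB −1.60 ± 0.91 SE on the log2 scale, adjusted p = 0.575) and Malt1 (−1.02 ± 0.91 SE, adjusted p = 0.748).

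Traf3, the adaptor whose loss frees NIK, was hit in 14 of 30 PB tumours by the gene column. At least 1 of the 9 genes was hit in 13 of these 14 (92.9%) and in 15 of the 16 PB tumours without a Traf3 insertion (93.8%). Malt1 was hit in 9 of 14 and 10 of 16, Nfkb1 in the same numbers, Birc3 in 8 of 14 and 7 of 16, Tnfaip3 in 5 of 14 and 5 of 16, Map3k14 in 4 of 14 and 4 of 16, Rel in 4 of 14 and 3 of 16, Bcl10 in 4 of 14 and 1 of 16, Nfkb2 in 2 of 14 and 1 of 16, and Traf2 in 1 of each. Read from the members' side, 47.4% of the tumours hit in Malt1, 53.3% of those hit in Birc3 and 50% of those hit in Tnfaip3 also had a Traf3 insertion, where 46.7% of all PB tumours did. The tumours with a Traf3 insertion had more insertions in all, a median of 5836.5 against 3946, so that any gene is more likely to be hit in them, and no test of overlap was made.

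In SB, Traf3 was hit in 6 of 11 tumours, and at least 1 of the 9 genes in 4 of these 6 and in all 5 others. Malt1 was hit in 4 of 6 and 3 of 5, Nfkb1 in 3 of 6 and 2 of 5, and Nfkb2 in 2 of 6 and 0 of 5. The 2 tumours with a Birc3 insertion had none in Traf3 by the gene column. Over the RefSeq extent of Traf3 (chr12:111166370-111267155), where further insertions are listed under 4930595D18Rik, the tumours hit were 18 of 30 in PB and 8 of 11 in SB, and a member was hit in 17 of 18 PB tumours with Traf3 and 11 of 12 without, and in 6 of 8 SB tumours with Traf3 and 3 of 3 without.

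Few tumours had a Traf3 insertion among their best covered. In the 12 PB tumours with an insertion of the 9 genes among the 25 best covered, Traf3 was hit in 4 by the gene column and in 6 over its RefSeq extent. In none of them was a Traf3 insertion among the 25 best covered, and its best rank there was 117, in PB tumour 19. Of the 30 PB tumours 1, PB tumour 14, had Traf3 insertions of that rank (2 of them over the RefSeq extent, the best at rank 4 with 6.18% of reads), and it had no such insertion in the 9 genes. In SB, 4 tumours had such an insertion in a member and 2 in Traf3, and SB tumour 8 had both, Malt1 first and Traf3 at rank 15. These counts have no test, and with 1 such PB tumour for Traf3 they say little of overlap.

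**Figure D5:**
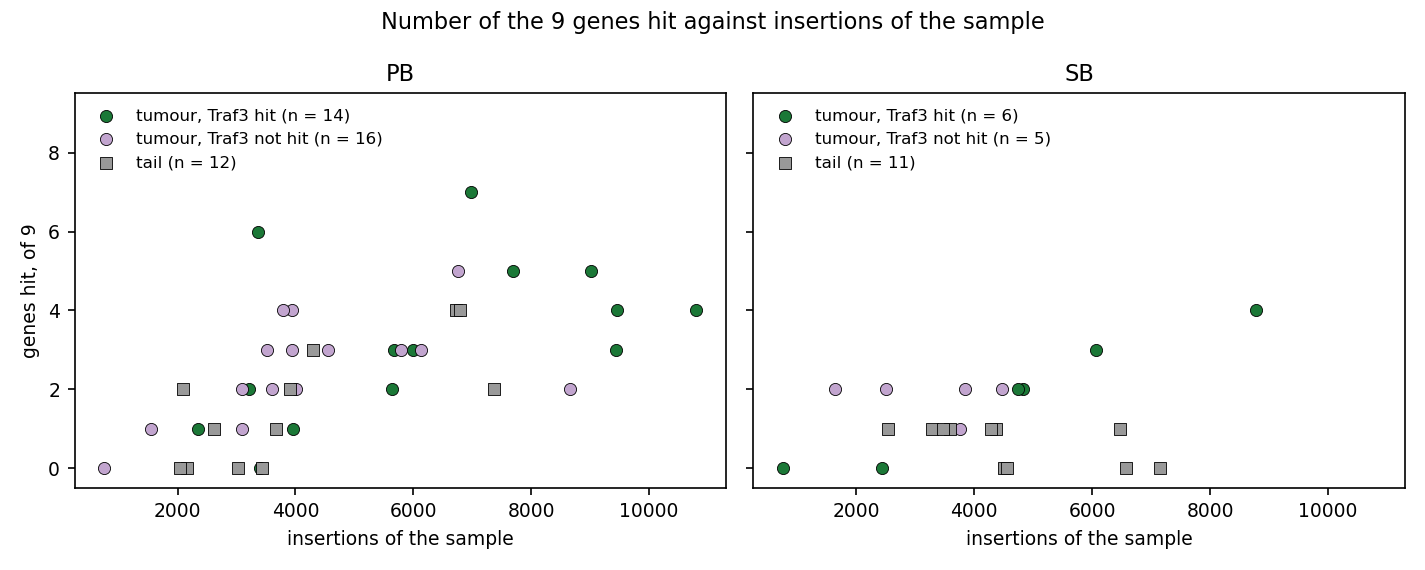
Number of the 9 genes hit in a sample (vertical axis) against the insertions of the sample (horizontal axis), for PB (left) and SB (right). Circles are tumours, green where Traf3 was hit by the gene column, and squares are tails. The 2 PB tumours with none of the 9 genes hit had 757 and 3395 insertions, and those hit in Traf3 (median 5836.5 insertions) lie further right than the others (median 3946).

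Of 41 other genes of the pathway (IκB proteins, kinases, receptors, adaptors, ubiquitin enzymes), 40 could be tested for selection and Rnf31 lay on the donor chromosome that was left out. This list, too, was chosen with earlier results of these data known. In PB tumours 9 of the 40 were called (4.85% of all genes were), with a median ratio of 1.68 (0.725 over all genes). They were Nfkbia, which encodes IκBα (7 insertions in 4 tumours, ratio 52.2), the atypical IκB genes Bcl3 (12 in 9, ratio 27.2) and Nfkbiz (13 in 10, ratio 6.29), Tank, for a TRAF-binding adaptor (46 in 21, ratio 6.02), Birc2, for cIAP1 (11 in 9, ratio 6.13), Tnip1, for a partner of A20 (12 in 9, ratio 4.58), Tab2, for an adaptor of the kinase TAK1 (17 in 11, ratio 3.47), and the deubiquitinase genes Otulin (9 in 8, ratio 5.31) and Cyld (17 in 10, ratio 3.43). In SB tumours none of the 40 was called (0.39% of all genes were). The genes with enough insertions by the gene column to be compared with tails in PB were also 9, but a different set. It lacked Nfkbia, Birc2 and Otulin, and it held Map3k7, Prkcb and Tbk1, which were not called for selection. By edgeR 0 of these 9 in PB (1 at an unadjusted p below 0.05) and 0 of the 1 tested in SB were called.

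Malt1 and Nfkb1 were hit in the same number of PB tumours, though not in the same ones. By the share of PB tumours hit in either gene that were hit in both (Jaccard index, over 7053 genes hit in at least 3 of the 30 PB tumours), the genes most like Malt1 were Hivep2 (0.818, 18 shared tumours), Tenm2 (0.792) and Parp8 (0.783). Those most like Nfkb1 were Tank (0.739, 17 shared tumours), Tcf4 (0.731) and Eml6 (0.727, tied with Reln). All were hit in 19 or more PB tumours, and the index favours genes hit often and tumours with many insertions.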

How the data were processed

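Transposon insertion sites of 64 mice (PB, 30 tumours and 12 tails; SB, 11 and 11) were analysed. The authors deposited raw counts of reads, not normalized, for each insertion position, with its strand and gene name, from splinkerette PCR and paired-end MiSeq sequencing (QiSeq) on mm 10 (GRCm38). The aligner and caller are not given in the sources used here, nor what the listed strand means for the transposon's cargo. A coverage column scaled to a maximum of 1 in every sample (1 column) was not used.

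Each position was shifted by at most 5 bp to its closest motif (TTAA in PB, TA in SB) and counted once per sample, which left 209 of 211 lines naming a member. Sex chromosomes and the donor chromosome (14, the autosome densest in insertions) were left out. Place in a gene follows its longest RefSeq transcript. Members and lists were chosen with earlier results of these data known. All 9 members are named, as are Traf3, called genes of the pathway list and the 3 nearest genes by Jaccard index. Selection, strand and edgeR tests were tested on simulated data. Labels do not pair samples. P-values of edgeR and DESeq2 measure the spread between mice, whereas those of selection and strand rest on pooled insertions and leave it out.

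Python 3.11.15, numpy 2.4.6, pandas 2.3.3, scipy 1.17.1, R 4.3.3, edgeR 4.0.16 and DESeq2 1.42.0 were used. Alternatives covered the test, correction, read minimum, gene extent, normalization, sample name form and each left-out sample.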

Additional observations from a re-analysis of the deposited data

How the results depend on the processing

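No paired analysis was possible because replicate numbers follow the order of the records and no mouse, by its name, gave both a tumour and a tail. For single members, 210 values under alternatives with all samples kept direction and side of the threshold, 13 lost a call or threshold, 6 gained one and 2 reversed. The reversals were Nfkb1 in PB tumours against tails with joined names (−0.17 on the log2 scale) and the strand of Tnfaip3 at 1 vote per tumour (1.61 percentage points above the background share, below it otherwise).

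Selection in PB tumours called 1094 genes, and 632 with an exact Poisson test, 2755 with Benjamini-Hochberg correction, 485 by presence per sample, 469 with at least 10 reads and 200 among separated names, where 3 of the 9 members were called. In SB tumours it called 93, and 33, 303 and 17 with the first 3 of these, while 2 members were called with Benjamini-Hochberg correction and 2 with 10 kb added (1 otherwise). PB tumours against tails gave 147 genes by edgeR, 76 by DESeq2, 71 without a minimum, 7 by Fisher's exact test on presence, 33 with joined and 28 with separated names. SB tumours against tails gave 9 by edgeR, 2 by DESeq2 and 1 by Fisher's exact test, with 1, 0 and 0 members. The strand test called 1 gene, Malt1, and 0 genes and 0 members at 1 vote per tumour and when insertions with 10 times fewer reads than another sample at the position were left out, an alternative chosen after seeing the data. The interaction called 0 genes, and 1 with at least 10 reads and 1 without a minimum.

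Leaving out each sample in turn, Nfkb1 in PB tumours against tails ranged from −0.041 to 0.30 and the log2 selection ratio of Traf2 in PB tumours from −0.24 to 0.83. Members called ranged from 5 to 6 in PB selection (Nfkb2 was lost), from 1 to 2 in SB selection (Nfkb1 was gained without SB tumour 3, 6 or 10) and from 0 to 1 in SB tumours against tails (Birc3 was lost without SB tumour 8). In SB selection, the log2 ratio of Birc3 was 1.29 without SB tumour 8 and that of Rel 1.32 without SB tumour 6. Only 5 members in PB and 3 in SB had the 10 insertions needed to compare tumours with tails. Separated names could not be run in SB, which has no such tumour.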
